A study of Homo sapiens with 2 samples.

Results

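Cortical hem-like barcodes were those in which genes of the hem, WNT ligands, R-spondins and the transcription factor LMX1A, were detected together while counts of the choroid plexus transcript TTR were limited. They were 438 of the 18154 barcodes that passed the limits on depth and mitochondrial share, 250 of 11375 in a library of nuclei and 188 of 6779 in a library of cells. Members had to show at least 3 of 7 genes (WNT2B, WNT3A, WNT8B, RSPO1, RSPO2, RSPO3 and LMX1A) and at most 2 counts of TTR, and the 250 highest summed shares of these genes (the rule score, given per 10000 transcripts) were taken in each library. In the cells only 188 barcodes met the conditions, so all of them were members and no score limit applied. The reference was every other barcode of the same library with more than 2000 (nuclei) or 5000 (cells) transcripts and at most 20% mitochondrial counts.

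All organoids came from the human embryonic stem cell line H9, with no genetic change named. The cells library pooled control cerebral organoids grown with a commercial kit (CO, days 45, 55 and 70), organoids taken apart at day 45 and allowed to reaggregate (DISS, days 48, 55 and 70), and organoids freed of Matrigel at day 13 and enclosed in 3% agarose (CONS, day 55). The nuclei library is described by the study as day 45 CO, taken whole or after dissociation to a suspension, whereas its label lists control, dissociated and embedded organoids. Barcodes of each library carry a single sample name, so that no barcode could be tied to an organoid, a condition or a day, each library was 1 sample, and no difference was tested.

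The cortical hem is a signalling centre at the dorsomedial edge of the developing cortex, between the cortical neuroepithelium and the choroid plexus. It secretes WNT and BMP proteins that pattern the adjacent hippocampal field, and it is a source of Cajal-Retzius neurons, the reelin-secreting cells of the cortical surface. R-spondins are secreted proteins that bind LGR receptors and strengthen the response of a cell to WNT ligands, and LMX1A is a homeodomain factor of the roof plate and the hem.

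WNT8B, RSPO1 and WNT3A were the rule genes with the highest ratios of members to reference in the nuclei, and their promoters are given for that reason. The 250 bases before each RefSeq transcript start (GRCh38.p14) lie at chr10:100462759-100463008 on the plus strand for WNT8B, chr1:37634893-37635142 on the minus strand for RSPO1 and chr1:228006748-228006997 on the plus strand for WNT3A. Capitals mark matches, on either strand, to the TCF/LEF core TCAAAG, the motif of the factors that act in WNT signalling, or to the homeodomain core TAATTA.
WNT8B: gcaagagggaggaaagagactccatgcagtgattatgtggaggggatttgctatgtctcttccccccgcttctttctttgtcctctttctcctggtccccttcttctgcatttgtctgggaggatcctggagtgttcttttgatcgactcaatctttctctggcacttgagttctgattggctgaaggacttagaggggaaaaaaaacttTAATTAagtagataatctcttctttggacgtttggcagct
RSPO1: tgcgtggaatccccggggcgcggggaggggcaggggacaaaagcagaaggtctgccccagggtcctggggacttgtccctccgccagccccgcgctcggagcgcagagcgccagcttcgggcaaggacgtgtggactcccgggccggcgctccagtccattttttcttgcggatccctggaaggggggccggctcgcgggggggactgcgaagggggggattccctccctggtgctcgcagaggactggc
WNT3A: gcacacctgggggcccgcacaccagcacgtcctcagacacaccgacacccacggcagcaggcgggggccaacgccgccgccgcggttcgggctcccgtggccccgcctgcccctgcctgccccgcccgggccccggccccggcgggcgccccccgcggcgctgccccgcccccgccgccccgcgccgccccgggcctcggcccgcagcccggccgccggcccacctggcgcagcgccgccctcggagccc
The single match was the TAATTA in the window of WNT8B. Windows were given for 6 of the 7 rule genes, of which 0 held the TCF/LEF core and 1 held the homeodomain core. Among 35116 promoter windows of the same length, 11.2% held the TCF/LEF core and 4.35% the homeodomain core. The genes described later as highest in both libraries had 27 windows, of which 11.1% held the TCF/LEF core and 3.70% the homeodomain core, close to the shares of all windows.

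Members had a median of 5251.5 transcripts in the nuclei (reference 4644) and 12584.5 in the cells (reference 10748). The rule score ran from 7.30 to 220 per 10000 transcripts in the nuclei, with a median of 38.9, and the first barcode under the limit had 6.56. In the cells it ran from 0.628 to 124, with a median of 12.8. Barcodes of 10 to 100 transcripts, which hold mostly free RNA, carried the 7 genes at 314 CPM (the counts-per-million unit: summed counts over summed transcripts) in the nuclei and 273 CPM in the cells, that is 3.14 and 2.73 per 10000. All 250 nuclei members scored above that level, whereas 37 of the 188 cells members, 19.7%, scored at or under it. These 37 had a median depth of 25259 transcripts, against 9806 in the other 151. They held 1267755 of the 3645114 transcripts of cells members, so they weigh heavily in pooled levels of the cells. The limit on TTR took out 66 of 347 nuclei and 647 of 835 cells that showed at least 3 rule genes. TTR itself was at 62.5 CPM in the shallow barcodes of the nuclei and 536 CPM in those of the cells, and at 46.5 and 54.3 CPM in the members. The reference sub-libraries held it at 58.9 to 67.4 CPM in the nuclei and 501 to 803 CPM in the cells. Of the members, 30 nuclei and 70 cells had 1 TTR count, and 23 nuclei and 64 cells had 2.

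The R-spondins dominated the score. RSPO2 made up 65.3% of the rule counts in nuclei members and 53.8% in cells members, and was detected in 241 of 250 and 168 of 188. Its pooled level was 2764 CPM in nuclei members against 82.1 CPM in the reference, and 723 against 89.3 CPM in the cells. RSPO3 stood at 412 against 17.8 CPM in the nuclei and 159 against 15.4 CPM in the cells, and RSPO1 at 94.1 against 1.48 CPM and 82.6 against 5.33 CPM. These levels chose the members and are a description. All 3 R-spondins were higher than in the reference in each of the 2 sub-libraries of nuclei and the 8 of cells, which are technical aliquots of 1 pool.

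LMX1A was detected in 92.4% of nuclei members and 79.8% of cells members, at 800.2 and 212 CPM against 67.7 and 45.3 CPM in the reference. In the nuclei it was the rule gene found most often beside RSPO2, with both detected in 222 of 250 members, and in the cells LMX1A and WNT2B were each found beside RSPO2 in 132 of 188. Of the ligands, WNT2B was detected in 36.8% and 79.8%, WNT8B in 12.8% and 14.4%, and WNT3A in 12.4% and 16.0% (Clopper-Pearson 95% interval 8.58 to 17.1% in the nuclei). WNT8B and WNT3A were thus sparse in single barcodes. Outside the members 22 and 32 of 11125 reference nuclei showed a count, and 138 and 210 of 6591 reference cells, more barcodes than the 27 and 30 members of the cells. WNT2B was the least particular, being present in 11.8% of reference nuclei and 33.6% of reference cells. Detection of 3 genes was the commonest outcome, in 156 nuclei and 91 cells members, and only 3 nuclei and 2 cells showed all 7.

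Each rule gene was next left out of the rule, and its level was read in the barcodes that the other 6 genes chose. RSPO2 reached 2056 CPM (1974 to 2140, exact Poisson 95% interval) in the 117 nuclei chosen without it, against 113 CPM elsewhere, a ratio of 18.1. The ratios in the nuclei were 51.7 for WNT8B, 34.3 for WNT3A, 29.9 for RSPO1, 10.9 for RSPO3, 7.08 for LMX1A and 2.00 for WNT2B. In the cells they were 4.82, 6.91, 14.1, 10.1, 4.76 and 3.63 in the same order, and 11.6 for RSPO2. Every rule gene was higher in barcodes chosen by the remaining 6, with WNT2B the weakest in both libraries. The barcodes so chosen were largely the members again. In the cells all of them were members, and in the nuclei from 102 of 117 without RSPO2 to 243 of 250 without WNT8B. The ratios are thus a description and no independent support for the rule. The interval, like all those given here, covers counting error only.

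**Figure D1:**
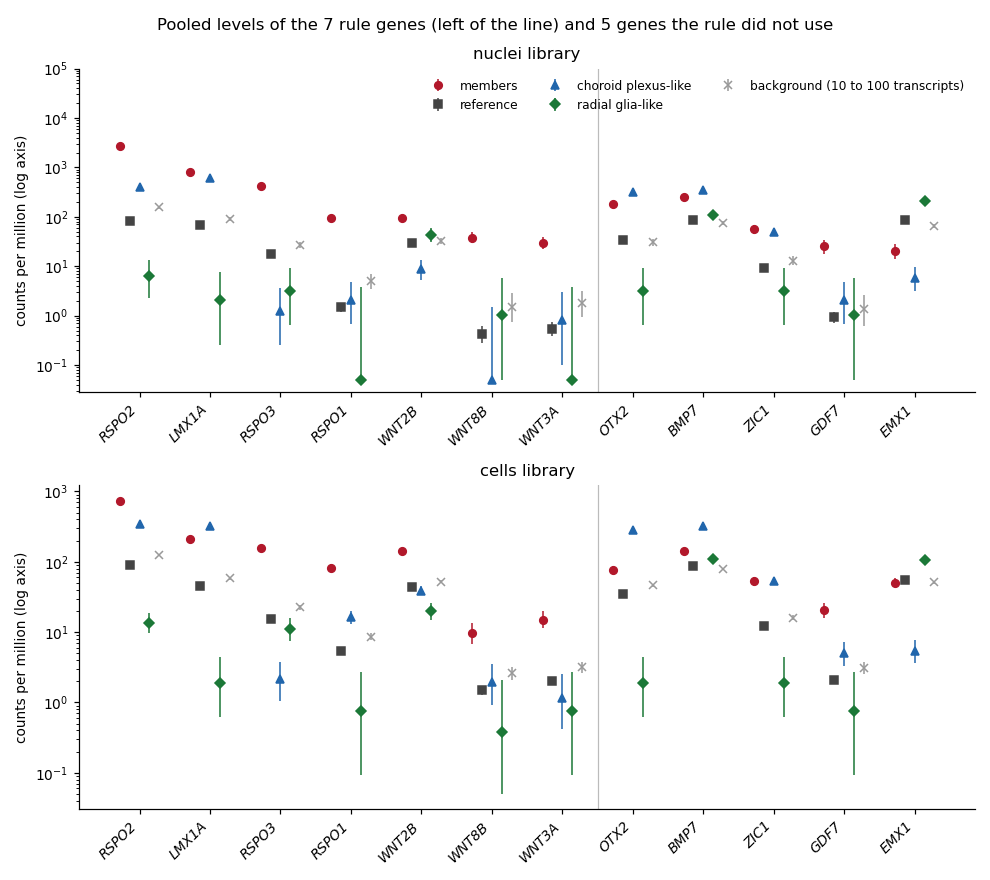
Pooled CPM (log axis) of the 7 rule genes and of 5 genes the rule did not use, in the nuclei and the cells library, for members, the reference, 2 comparison groups and barcodes of 10 to 100 transcripts. Points are pooled values, bars exact 95% Poisson intervals, and a value or bound of 0 is drawn at 0.05. RSPO2 in nuclei members lies at 2764 CPM. EMX1 is the gene shown that lies under the reference in the nuclei, at 20.2 against 86.04 CPM, and in the cells it lies close to the reference.

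To place the members, 3 groups were built from other marker genes, by the highest summed shares among barcodes that were not members. They were choroid plexus-like (250 in each library), radial glia-like (250 in each) and Cajal-Retzius-like barcodes (122 nuclei and 53 cells). The limit of 2 TTR counts applied to the radial glia-like and Cajal-Retzius-like barcodes but not to the choroid plexus-like ones. The radial glia-like barcodes were chosen by PAX6, EMX1, EMX2, LHX2, HES5, GLI3 and SOX2. The 7 rule genes summed to 4232 CPM in nuclei members, 1020 CPM in choroid plexus-like, 157 CPM in Cajal-Retzius-like and 55.4 CPM in radial glia-like nuclei. In the cells the sums were 1345, 726, 124 and 48.5 CPM. The choroid plexus-like barcodes came next, with RSPO2 at 405 CPM and LMX1A at 602 CPM in the nuclei but RSPO3 at 1.24 CPM, against 412 CPM in the members. Every cell with at least 3 rule genes and at most 2 TTR counts was a member. Radial glia-like and Cajal-Retzius-like cells therefore could not show 3 rule genes, whereas choroid plexus-like cells could. The order of the groups was thus partly fixed by how they were chosen, and nothing follows from it.

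Among genes of at least 5 CPM, 565 of 12761 (4.43%) were at least 2-fold higher in nuclei members than in the reference and 983 (7.7%) at least 2-fold lower. In the cells 261 of 14323 genes (1.82%) were higher and 86 (0.6%) lower by the same measure. Of 12635 genes measured in both, 558 were higher in the nuclei and 209 in the cells, with 167 shared, which is 29.9% of the nuclei list and 79.9% of the cells list. The 50 genes with the highest nuclei ratios all had a ratio over 1 in the cells (median 3.35, range 1.28 to 14.3), and 43 of them reached 2. With all 281 nuclei candidates as members, the further ones being of lower score, the lower genes of the nuclei numbered 414, and without the 37 cells members at or under the level of shallow barcodes the cells gave 512 higher and 307 lower genes. The rule was the same in both libraries, so the shared genes are no independent support for it.

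The gene lists also hold genes of lower level, for which a ratio past 2-fold was more common. Among all genes of at least 20 counts, 10.8% were at least 2-fold higher and 18.1% at least 2-fold lower in the nuclei, and 8.2% and 11.6% in the cells. Dorsal midline transcription factors were higher in the members than in the reference, though not than in choroid plexus-like barcodes. They summed to 477 CPM in nuclei members, 155 CPM in the reference and 535 CPM in choroid plexus-like nuclei, and to 386, 206 and 632 CPM in the cells. Of 13 factors, 11 were at least 2-fold higher in the nuclei and 1 lower (median log2 ratio 1.92, against -0.03 over all genes), and 5 were higher and 0 lower in the cells (median 0.73, against -0.0026). OTX2, a head and choroid plexus homeodomain factor, stood at 171 and 184 CPM in the 2 nuclei sub-libraries of members and at 33.0 and 34.0 CPM in the reference. In the cells OTX2 ranged from 34.8 to 164 CPM over the 8 sub-libraries of members and from 31.2 to 42.2 CPM in the reference, so that the ranges touched although members were higher in all 8. ZIC1, a zinc finger factor of the dorsal neural tube, was at 56.2 against 9.08 CPM in the nuclei (ratio 6.19) and 52.4 against 12.3 CPM in the cells (4.25). LMX1B, the paralogue of LMX1A, gave ratios of 7.41 and 4.63, and MSX1, a BMP-responsive factor, 7.21 and 1.68. OTX1 was the factor that was lower in the nuclei, at 5.50 against 12.2 CPM, from 9 counts. After thinning every barcode to the depth limit, 18.4% of nuclei members (13.8 to 23.8%) showed at least 2 of the 13 factors, as against 3.28% of the reference and 16.8% of choroid plexus-like nuclei, and the unthinned shares were 50.4%, 13.7% and 68.8%. In the cells the thinned shares were 48.9%, 21.0% and 64.4%, and the unthinned ones 78.7%, 44.4% and 88.0%.

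BMP ligands followed the same direction, with 4 of 7 at least 2-fold higher in the nuclei (median log2 ratio 1.41) and 3 of 7 in the cells (0.90). In sum they too were higher in choroid plexus-like barcodes than in the members. The sums were 322 CPM in nuclei members, 109 CPM in the reference and 401 CPM in choroid plexus-like nuclei, and 200, 107 and 382 CPM in the cells. GDF6 had no count in nuclei members, and its 0.211 CPM in the reference lay under the 1.83 CPM that a count of 0 allows. GDF7, a roof plate ligand, was at 25.1 CPM in nuclei members (41 counts) against 0.935 CPM in the reference, a ratio of 26.8 (17.6 to 40.4), and at 20.3 against 2.09 CPM in the cells (9.69, 7.39 to 12.6). BMP7 was more abundant, at 255 against 88.0 CPM and 140 against 87.4 CPM. GDF7 was the more restricted of the pair, since choroid plexus-like nuclei held it at 2.06 CPM while they held BMP7 at 349 CPM. BMP5 gave ratios of 4.11 and 3.90 and BMP2 2.96 and 4.17, and BMP4 was at or under 3.29 CPM in the members of both libraries. None of the 6 BMP receptor genes was 2-fold higher in either library, and ACVR2A was lower in the nuclei, at 137 against 287 CPM. Of 7 BMP-responsive genes, 4 were higher in the nuclei and 1 lower, with SMAD6, an inhibitory SMAD, at 63.0 against 26.9 CPM, and 1 was higher in the cells, the decoy receptor BAMBI at 7.68 against 3.53 CPM. ID4, a helix-loop-helix repressor, was the lower gene of the nuclei, at 17.1 against 42.2 CPM. The 5 secreted BMP inhibitors gave no 2-fold higher gene in either library, and FST, with 2 counts in cells members, was the lower gene.

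Of 16 further WNT and R-spondin genes that the rule did not use, 11 had at least 20 counts in the nuclei, of which 9 were at least 2-fold higher, and 6 of 16 were higher in the cells. WNT5A, a ligand of the non-canonical branch, was at 34.2 against 4.21 CPM and 14.8 against 7.12 CPM, and WNT9A at 31.8 against 7.07 CPM and 12.1 against 6.46 CPM. WNT10B was scarce in level (7.95 and 7.41 CPM) but at 0.528 and 1.17 CPM in the reference. WNT7A, a ligand of the ventricular zone, was under the reference in both libraries, at 7.34 against 14.01 CPM and 4.39 against 7.38 CPM. WLS, the carrier that all secreted WNT proteins need to leave the cell, stood at 653 against 75.6 CPM in the nuclei and 344 against 76.5 CPM in the cells, ratios of 8.65 and 4.50.

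Receptors and readouts of WNT signalling differed less. Of the receptor and receptor-turnover genes with at least 20 counts, 1 of 18 was higher and 3 were lower in the nuclei (median log2 ratio 0.30), and 3 of 20 were higher and 1 lower in the cells (0.34). LGR4, a receptor of R-spondins, was at 39.7 against 20.9 CPM and 37.3 against 16.7 CPM, whereas FZD8, a Frizzled receptor, was at 3.67 against 18.3 CPM and 16.5 against 26.7 CPM. Of the WNT target genes with at least 20 counts, 2 of 8 were higher and 2 lower in the nuclei, and 1 of 9 was higher and 0 lower in the cells. The 10 targets summed to 268 CPM in nuclei members, 402 CPM in the reference and 587 CPM in radial glia-like nuclei. In the cells the sums were 477, 374 and 1118 CPM. AXIN2, the common feedback target, was at 77.0 against 37.4 CPM and 73.2 against 39.6 CPM, and TCF7, a TCF/LEF factor, at 26.9 against 9.005 CPM and 18.9 against 12.9 CPM. LEF1, another factor of that family, went below the reference in the nuclei (58.7 against 208 CPM) and was near it in the cells (177 against 186 CPM). The higher target of the cells was APCDD1, an inhibitor, at 67.8 against 29.1 CPM, and without the 29 members of the first-round well with most members (D12) no target reached 2-fold, whereas 4 did in the 151 cells members that scored above the shallow barcodes. Secreted inhibitors were split, with DKK2 at 63.6 against 18.3 CPM and 113 against 20.2 CPM, and SFRP1 at 23.8 against 120 CPM and 68.9 against 137 CPM. FGF pathway genes gave 6 higher of 12 in the nuclei and 2 in the cells, with FGFR2 at 877 against 349 CPM and 429 against 285 CPM. The 12 genes summed to 1274 CPM in nuclei members, 621 CPM in the reference and 1728 CPM in choroid plexus-like nuclei, and to 777, 552 and 1624 CPM in the cells.

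Transcription factors of the cortical field were lower in nuclei members. LHX2, the selector of cortical over hem fate, ranged from 76.9 to 100.3 CPM over the 2 sub-libraries of nuclei members and from 229 to 236 CPM in the reference, a pooled ratio of 0.378 (0.318 to 0.445). EMX1, a factor of the dorsal cortex, was at 20.2 against 86.04 CPM, PAX6 at 38.5 against 140 CPM and GLI3 at 402 against 1235 CPM. In all 6 of 10 factors were at least 2-fold lower in the nuclei and 0 of 10 in the cells, where EMX1 was at 50.2 against 54.5 CPM and LHX2 at 187 against 232 CPM. These pooled levels of the cells include deep barcodes of low score. In the 63 cells with the highest scores EMX1 was at 14.3 CPM, LHX2 at 107 CPM and GLI3 at 298 CPM, the last against 832 CPM in the reference. EMX2 was nearer to the reference there, at 123 against 143 CPM. With all 281 nuclei candidates 4 of the 10 factors were 2-fold lower. LHX2 in cells members ranged from 100.5 to 304 CPM over the 8 sub-libraries and overlapped the reference, at 211 to 254 CPM. NR2F2, a nuclear receptor of caudal and medial cortex, was the only factor of the 10 to be 2-fold higher in the nuclei, at 31.2 against 11.5 CPM, and EMX2, a medial cortex factor, was close to the reference in both libraries (62.4 against 58.0 CPM and 137 against 143 CPM). With the 151 cells members that scored above the shallow barcodes, 1 of the 10 cortical factors was 2-fold lower, 8 of the 13 midline factors were higher and 5 of the 7 BMP ligands were higher.

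**Figure D2:**
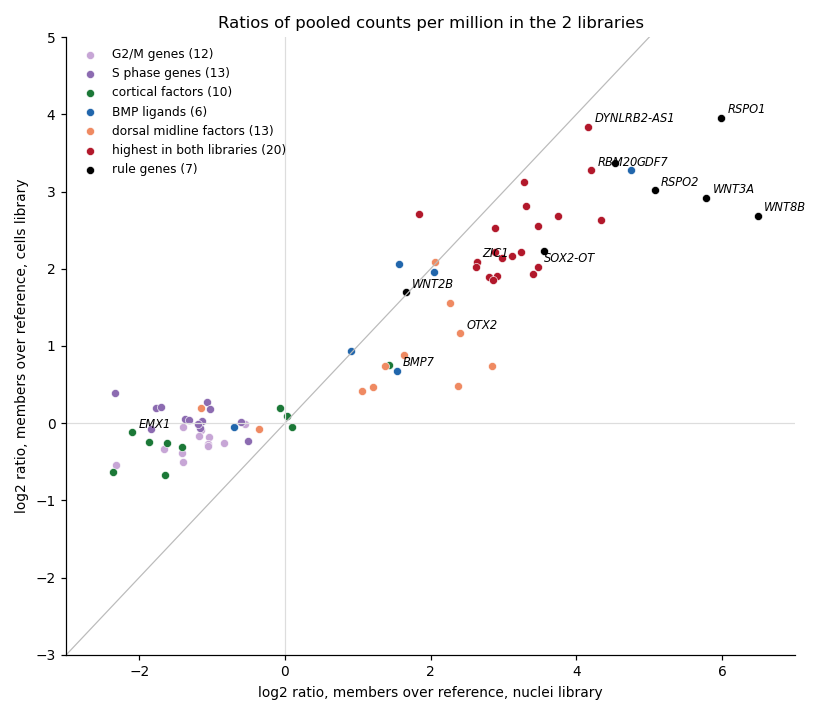
Log2 ratio of members over reference for single genes in the nuclei library (x axis) and the cells library (y axis), coloured by gene list, with the number of genes plotted and the diagonal of equal ratios. Genes needed at least 20 counts in each library and a count in the members. Rule genes chose the members, cortical factors such as EMX1 lie at the left (log2 ratio -2.09 in the nuclei and -0.12 in the cells), and most points lie closer to 0 on the y axis.

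The genes with the highest ratios in both libraries, rule genes left out, gave smaller ratios in the cells with the exception of PAX3. These 20 genes were also high in choroid plexus-like barcodes. They summed to 16258.5 CPM in nuclei members, 6601 CPM in choroid plexus-like nuclei and 1679 CPM in the reference. In the cells the sums were 5928, 4401 and 1268 CPM. DYNLRB2-AS1, a long non-coding RNA, was at 216 and 396 CPM in the 2 nuclei sub-libraries of members and at 17.0 and 17.6 CPM in the reference, and ranged from 32.4 to 429 CPM over the cells sub-libraries of members (reference 9.84 to 26.6 CPM). RBM20, a splicing regulator, gave ratios of 18.5 and 9.70, CCBE1, an extracellular matrix protein, 9.74 and 8.71, and the membrane protein TMEM132D 9.92 and 7.01. PRTG, an immunoglobulin-family receptor of the early neural tube, was at 831 against 61.7 CPM and 371 against 57.9 CPM. TRIM67 (20.3 and 6.23), EYA4 (11.1 and 5.85), SHISA9 (7.36 and 5.77) and PLS3 (9.43 and 4.66) followed, then LMX1B, WLS, FYB2, ZIC1, SOX2-OT, NTRK2, SAMD5, TSHZ2, FAM107A and PAX3. PAX3, a paired-box factor of the dorsal neural tube, was the exception, at 47.7 against 13.3 CPM in the nuclei and 112 against 17.2 CPM in the cells. These pooled ratios include the cells of low score. Among the highest scores alone, the 84 nuclei and 63 cells, DYNLRB2-AS1 was at 489.9 CPM in the nuclei (reference 17.3 CPM) and 476 CPM in the cells (13.3 CPM), and CCBE1 at 126 (8.60 CPM) and 222 CPM (13.9 CPM). TRIM67 was at 623 (13.6 CPM) and 278 CPM (13.4 CPM) and PRTG at 1579 (61.7 CPM) and 1209 CPM (57.9 CPM), so that the order of the 2 libraries differed between genes.

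SOX2-OT, the long RNA that spans the SOX2 locus, was the most abundant of these genes, at 7962 against 717 CPM in the nuclei (ratio 11.1) and 1995 against 489 CPM in the cells (4.08). SOX2, the progenitor factor within it, was at 88.0 against 70.2 CPM and 189 against 162 CPM over all members. It was higher in the highest scores, at 128 CPM (96.5 to 168) in the nuclei and 253 CPM (217 to 293) in the cells, than in the lowest, at 59.02 and 167 CPM. SOX2-OT and SOX2 lie on the same strand, so their reads may not have been separated under any strand setting. Whether counting used strand is not given in the sources used here, so the reads of DYNLRB2-AS1 and any gene opposite to it may not have been separated either.

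The 10 genes with the lowest ratios in both libraries were KIF12, C11orf87, CERKL, KCNA3, GUCY1B2, MYB, ATP2B3, PTPRQ, KCNJ10 and NEUROD2. NEUROD2, a factor of cortical excitatory neurons, was at 6.72 against 23.4 CPM and 50.2 against 102 CPM. KCNJ10, a glial potassium channel, was at 7.95 against 30.7 CPM and 8.23 against 16.8 CPM. Only 14 genes were at least 2-fold lower in both libraries, of 947 in the nuclei and 57 in the cells among the genes measured in both.

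The name progenitor was checked against markers of progenitors and division. Of 11 radial glia genes, 0 were 2-fold higher and 3 lower in the nuclei, namely HES5 (3 counts in members), SLC1A3 at 52.6 against 179 CPM, and PTPRZ1 at 202 against 619 CPM. In the cells 1 of 11 was higher, the intermediate filament NES at 109 against 38.6 CPM, and 0 were lower, while NES in the nuclei was at 44.01 against 41.8 CPM. At least 2 of 12 G2/M genes were detected in 8.40% of nuclei members after thinning (5.27 to 12.6%), as against 22.7% of the reference, 24.8% of radial glia-like and 4.40% of choroid plexus-like nuclei, and the unthinned shares were 18.0%, 33.3%, 35.6% and 21.6%. The thinned share in cells members was 50.5% (43.2 to 57.9%), against 48.9% in the reference and 68.4% in radial glia-like cells. MKI67 was at 59.3 against 157 CPM in the nuclei and 208 against 214 CPM in the cells, and 11 of 13 S phase genes were at least 2-fold lower in the nuclei and 0 in the cells. Members of the nuclei library thus carried fewer division genes than the reference, and in the cells this held by level for the 63 highest and 63 middle scores (880 and 720.5 CPM summed over the 12 G2/M genes, against 1206 CPM in the reference) but not for the 62 lowest (1261 CPM). In the highest scores NES was at 71.3 CPM in the nuclei (48.1 to 102) against 41.8 CPM, and at 272 CPM in the cells against 38.6 CPM. NES and SOX2 were thus above the reference in the highest scores, whereas PAX6 and GLI3 were below it there. PAX6 was at 26.2 against 140 CPM in the nuclei and 100.2 against 157 CPM in the cells. GLI3 was at 281 against 1235 CPM and 298 against 832 CPM. Neither the radial glia list nor the division lists were raised as a whole over all members.

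Excitatory neuron genes were lower in nuclei members. Of 11 excitatory neuron genes, 6 were at least 2-fold lower in the nuclei (NEUROD6 at 9.17 against 38.0 CPM, GRIA2 at 65.4 against 235 CPM) and 2 in the cells, with 0 higher in either. Of all genes of at least 20 counts, 11.6% were 2-fold lower in the cells. Of 7 intermediate progenitor genes, 4 were lower in the nuclei, such as NEUROG2 at 4.28 against 12.3 CPM, and 0 in the cells. The mitochondrial share of members had a median of 0.0833% in the nuclei and 3.27% in the cells, against 0.0867% and 2.25% in the reference. The 9 glycolysis and hypoxia genes summed to 1049 CPM in nuclei members against 675 CPM in the reference (median log2 ratio 0.51) and to 746 against 862 CPM in the cells (-0.25). SLC2A1, a glucose transporter, was the gene of that list past 2-fold, at 149 against 72.6 CPM in the nuclei. Of 9 immediate early genes, 1 was 2-fold higher in the nuclei, the heat shock gene HSPA1B at 29.95 against 14.7 CPM, and 0 in the cells.

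Reelin, the product of Cajal-Retzius cells, was high in a few members only. RELN was at 498 and 550.1 CPM in the 2 nuclei sub-libraries of members and at 74.95 and 98.3 CPM in the reference, but only 24 of 250 nuclei members had a count of it. The 5 members with most RELN held 629 of its 855 counts, 73.6%, and without them the pooled level was 143 CPM. In the cells 5 members held 520 of 600 counts, a single member 289 of them, and without the 5 the level fell from 165 to 22.7 CPM, under the 52.1 CPM of the reference. By sub-library, RELN in cells members ranged from 12.6 to 2201 CPM and was above the reference in only 3 of 8. Most RELN counts lay in barcodes with other Cajal-Retzius genes. In the 20 nuclei members with at least 2 of the other 7 genes of that list RELN was at 4335 CPM, and in the 194 with none it was at 60.8 CPM (47.3 to 77.0). In the cells RELN was at 458 CPM in the 34 members with at least 2 and at 21.1 CPM in the 108 with none. Among members with none of the other genes, 6 nuclei and 20 cells still had a RELN count. At least 2 of the 8 Cajal-Retzius genes were detected after thinning in 6% of nuclei members (3.40 to 9.70%) and 3.84% of the reference, and in 9.04% and 6.24% in the cells. A barcode with genes of both kinds can be 1 cell or 2, and these cannot be told apart here.

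Choroid plexus genes other than TTR were detected in the members. The 9 genes, TTR included, summed to 5084 CPM in nuclei members, 2693 CPM in the reference and 2579 CPM in the shallow barcodes (median log2 ratio 0.39). In the cells the sums were 2160, 2219 and 2213 CPM (-0.53), so the list as a whole was not raised there. TTR, which the rule limited, is part of these sums. HTR2C, the serotonin receptor that is abundant in choroid plexus epithelium, was at 4803 against 2496 CPM in the nuclei and 1970.3 against 1492 CPM in the cells, but in the cells its level in members was above the reference in 4 of 8 sub-libraries. CLIC6, a chloride channel protein, was at 150.4 against 69.9 CPM and 82.0 against 67.6 CPM. FOLR1 had no count in nuclei members and 7 in cells members. The remaining genes of the list, among them AQP1 (14.1 and 6.04 CPM) and KCNJ13 (6.72 and 5.21 CPM), lay within 2-fold of the reference in both libraries. Multiciliated cell genes gave 2 of 8 higher in the nuclei, with GMNC, a regulator of multiciliation, at 32.4 against 15.9 CPM, and 3 of 8 lower in the cells. FOXJ1, the master factor of motile cilia, had 2 counts in nuclei members and 11 in cells members.

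The TTR limit was examined in all barcodes with at least 3 rule genes. In the nuclei the rule genes summed to 3894 CPM in 215 barcodes with 0 TTR counts, 1745 CPM with 1 to 2, 1266.5 CPM with 3 to 9, and 585 CPM with 10 or more, while the choroid plexus genes without TTR rose from 2636 to 12480 CPM between the ends. In the cells the rule sums were 1736, 1225, 649 and 360.3 CPM, and the choroid plexus sums 2340, 2034, 1414 and 3109 CPM. RSPO3 was at 455, 63.7, 70.1 and 18.2 CPM in the nuclei and at 336, 105, 63.6 and 27.4 CPM in the cells. OTX2 was at 128, 165, 94.5 and 139 CPM in the nuclei, with no such order, and at 94.95, 71.6, 39.5 and 59.2 CPM in the cells. Depth rose along the same order, from a median of 5239 to 35084 transcripts in the nuclei and from 12160.5 to 38334 in the cells, so a limit on a count of TTR also selected on depth, and its share in these differences was not tested.

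**Figure D3:**
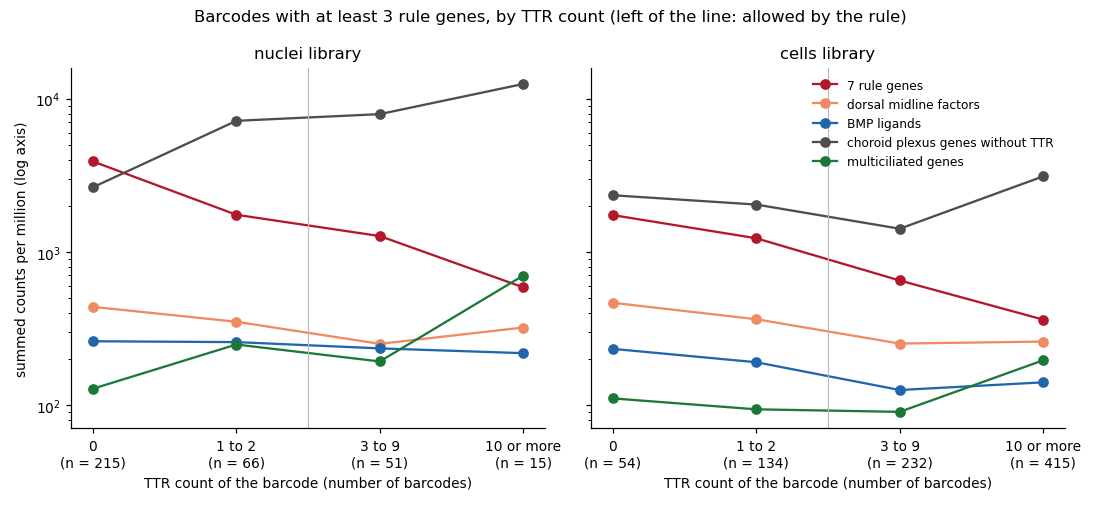
Summed CPM (log axis) of 5 gene lists in barcodes with at least 3 rule genes, by the TTR count of the barcode, with the number of barcodes under each class; the line separates the classes the rule allowed from those it removed. The 7 rule genes go down from 3894 to 585 CPM in the nuclei and from 1736 to 360.3 CPM in the cells.

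The members differed among themselves along the score. Nuclei members were taken as the 84 with the highest scores (57.8 to 220 per 10000), the 83 in the middle and the 83 with the lowest scores (7.30 to 22.8), and cells members as 63 (20.5 to 124), 63 and 62 (0.628 to 5.73). From the lowest to the highest part of the nuclei, PRTG was at 398, 834 and 1579 CPM, BMP7 at 207, 203 and 397 CPM, and EMX1 at 32.9, 16.4 and 2.38 CPM. OTX2 was above the reference (33.6 CPM) in every part, at 148, 195 and 209 CPM. ZIC1 did not follow the score in the nuclei, with 68.6, 65.7 and 23.8 CPM.

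In the cells the 62 lowest scores carried little of the profile of the higher scores. Their OTX2 was at 18.2 CPM against 34.4 CPM in the reference, BMP7 at 64.1 against 87.4 CPM, GDF7 at 1.56 against 2.09 CPM, and EMX1 at 73.99 against 54.5 CPM. Some of the genes highest in the members stayed above the reference, with RBM20 at 41.2 against 9.61 CPM, TMEM132D at 162 against 54.9 CPM and LMX1B at 9.90 against 5.57 CPM, whereas PRTG (62.0 against 57.9 CPM), CCBE1 (15.1 against 13.9 CPM) and EYA4 (42.7 against 53.4 CPM) lay near it. The 13 midline factors summed to 206 CPM in these barcodes, as in the reference, and to 483 and 738 CPM in the middle and highest parts. In the 63 cells with the highest scores OTX2 was at 189 CPM, GDF7 at 61.5 CPM, PRTG at 1209 CPM and EMX1 at 14.3 CPM. By these genes the upper parts of the cells stood apart from the reference, and the lowest only in part, which is referred to by the rule alone. The midline factors summed to 632 CPM in choroid plexus-like cells, and PRTG, RBM20, TMEM132D and CCBE1 were picked from these same members. These genes therefore do not settle the name cortical hem-like for any part. The median depth of the lowest part was 22051 transcripts, against 8939 in the highest part.

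**Figure D4:**
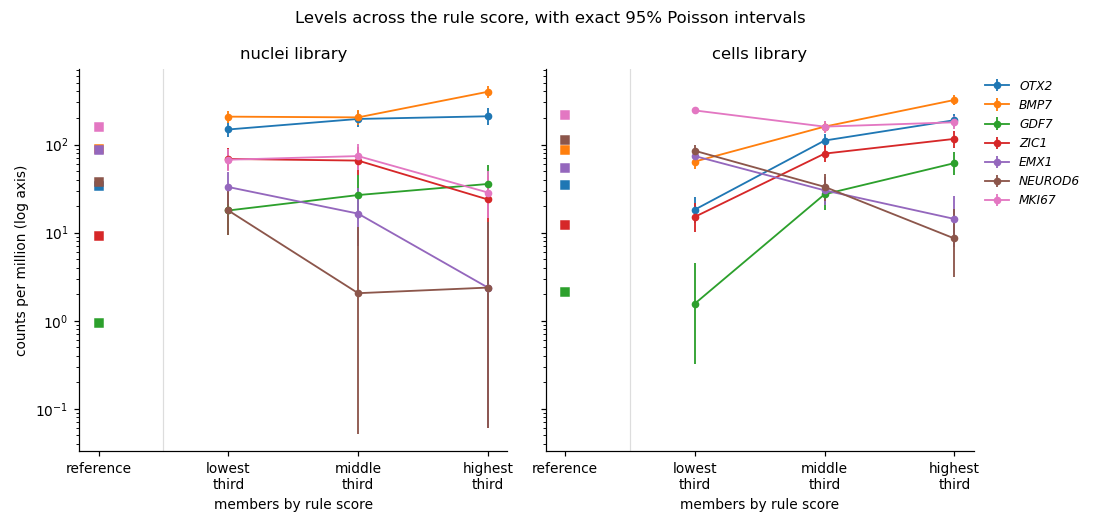
Pooled CPM (log axis) of 7 genes in the reference (squares) and in members of low, middle and high rule score (circles), with exact 95% Poisson intervals, in both libraries. In the cells EMX1 goes from 73.99 to 14.3 CPM and OTX2 from 18.2 to 189 CPM between the lowest and the highest scores, and the lowest scores lie near the reference.

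RELN and DKK2 were not highest at the top of the score. RELN was at 937 CPM in the lowest and 2.38 CPM in the highest part of the nuclei, and at 520 CPM in the middle and 12.9 CPM in the highest part of the cells. In each library 5 members held most of the RELN counts, so its higher levels rest on few barcodes. DKK2 was at 166 CPM in the middle and 11.9 CPM in the highest part of the nuclei, and at 288 CPM in the middle and 136 CPM in the highest part of the cells, against 10.4 CPM in the lowest. HTR2C was at 6009 CPM in the lowest and 2664 CPM in the highest part of the nuclei, while in the cells it was at 267 CPM in the lowest and 4290 CPM in the highest part, so that its order was opposite in the 2 libraries.

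Genes of other regions were read by list. The 7 hindbrain HOX genes summed to 1.22 CPM in nuclei members against 0.724 CPM in the reference, and to 1.37 against 2.17 CPM in the cells. The 9 inhibitory neuron genes summed to 36.7 against 30.3 CPM and 15.6 against 18.02 CPM, and the 8 eye genes to 148 against 119 CPM and 80.7 against 83.2 CPM. FOXA1, FOXA2, EN1, SIX6, DLX5 and DLX6 had no count in the members of either library, but a count of 0 allows up to 1.83 CPM in nuclei members and 0.823 CPM in cells members, above the level of each in the reference, so that nothing follows from it. Of the floor plate and midbrain genes with at least 20 counts, 1 of 4 was higher and 2 lower in the nuclei, and 2 of 6 were higher and 0 lower in the cells. CORIN, a protease of that list, was at 10.4 against 7.09 CPM in the nuclei and 32.9 against 11.6 CPM in the cells. Mesenchyme genes were low in sum (98.4 CPM against 46.9 CPM in the nuclei and 90.8 against 52.3 CPM in the cells), but 4 of the 8 with at least 20 counts in the nuclei and 5 of the 10 in the cells were at least 2-fold higher, among them the collagen COL1A2 at 9.17 against 3.15 CPM and 11.2 against 4.12 CPM. FOXC2 and LUM had no count in the members, FOXC1 had 1 in the nuclei and 8 in the cells, and the part of other cell types in these levels was not tested. The 9 genes of a diencephalon list summed to 421 CPM in nuclei members against 259 CPM in the reference, and to 245 against 185 CPM in the cells. Most of this was TCF7L2, a factor of the TCF/LEF family, at 411 against 248 CPM and 229 against 173 CPM. Of the diencephalon genes with at least 20 counts, 3 of 8 were higher and 3 lower in the nuclei, and 4 of 8 were higher and 1 lower in the cells. IRX1, IRX2 and IRX3, factors of more caudal neural tissue, had ratios over 3 in both libraries from 2 to 18 counts.

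Members were found in all 12 first-round barcoding wells of the nuclei and in 38 of 48 wells of the cells. Which sample each first-round well received is not given in the sources used here. In the nuclei the share ran from 0.786% of the 2164 barcodes of well A10 to 5.27% of the 759 of well A5 (3.79 to 7.11%), with a median of 2.68%. In the cells it ran from 0% to 27.8%, the latter from 5 of 18 barcodes (9.69 to 53.5%), with a median of 2.44%. Well D12 held 29 of the 188 cells members, 15.4%, and the 5 wells with most members held 42.0%, as against 63.2% for 5 of 12 wells in the nuclei. No difference between wells was tested, and conditions and wells cannot be told apart.

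**Figure D5:**
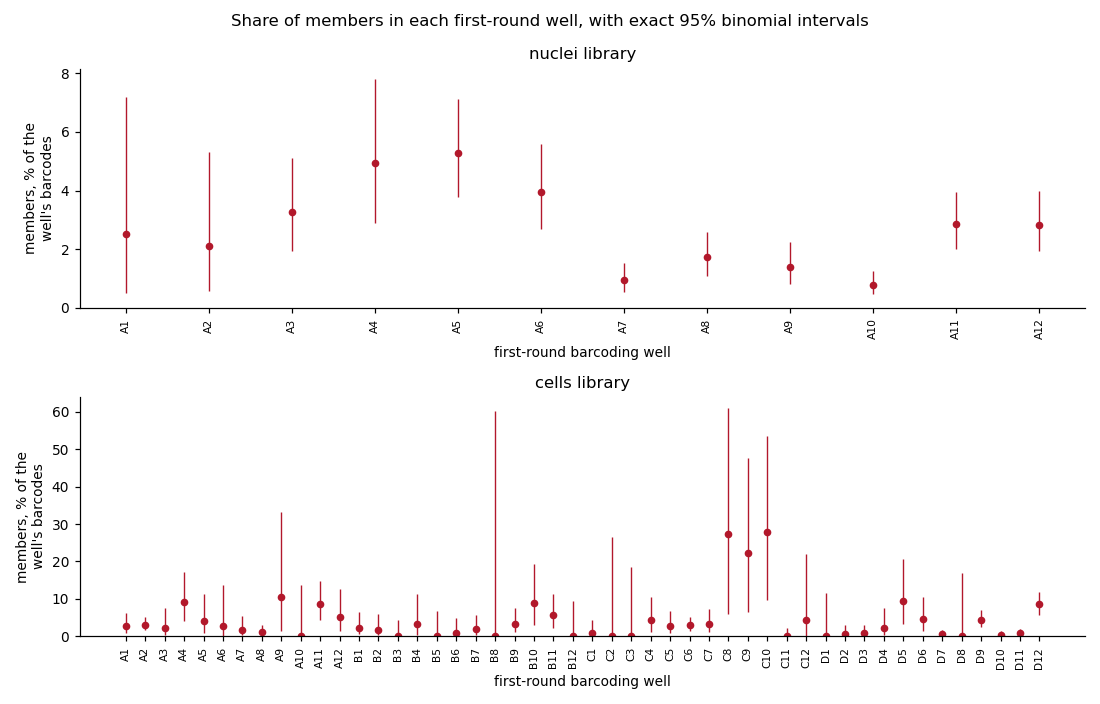
Members as a percentage of the barcodes of each first-round well, with exact 95% binomial intervals, in the nuclei (12 wells) and the cells (48 wells). Points are wells of unknown condition, and the widest intervals belong to wells with few barcodes, such as 5 of 18 at 27.8%.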

How the data were processed

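Split-seq barcodes were read from 2 libraries, 1 of nuclei and 1 of cells. The authors deposited unnormalised counts of transcripts per gene and barcode, made with the Parse Biosciences pipeline against GRCh38. The strand setting is not given in the sources used here. Members, lists and alternatives were chosen with earlier results of these data known. Levels are CPM, summed counts over summed transcripts, with exact 95% Poisson intervals, shares carry exact binomial intervals, and both cover counting error only. Genes were called by a ratio of at least 2 or at most 0.5 among those of at least 5 CPM; list counts used all genes of a list unless a minimum of 20 counts is given, and list medians those of at least 20 counts, with a pseudocount of 0.5. For shares, barcodes were thinned to 2000 (nuclei) or 5000 (cells) transcripts. A count of 0 was taken to allow 3. Each library was 1 sample, so no test was made. Named were the rule genes and TTR, for each of 29 lists the genes with the largest nuclei log2 ratios or absent, and the 20 highest and 10 lowest genes in both libraries; other genes were chosen after their values were seen. A few items that the rule names are not reported here. The ratio script was tested on simulated data. Computation used scanpy 1.11.5 for the doublet caller, matplotlib 3.10.9 for figures, and scipy 1.17.1, pandas 2.3.3 and numpy 2.4.6 under Python 3.11.15.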

Additional observations from a re-analysis of the deposited data

Results flagged for a closer look

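The 7 rule genes were present in barcodes of 10 to 100 transcripts, which no comparison used as cells, at 314 CPM in the nuclei and 273 CPM in the cells. The reference carried them at 199.6 and 203 CPM, and radial glia-like barcodes at 55.4 and 48.5 CPM. Both were taken outside the members, which lowers their levels of these genes by choice.

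For 14 of the 129 list genes with at least 20 member counts in both libraries (10.9%) the ratio of members to reference lay on opposite sides of 1 in the 2 libraries, with exact counting intervals that left out 1 on both sides. Over all 9730 such genes the share was 4.04%. The difference between the libraries was not tested, since each is 1 sample. Over 1 in the nuclei and under 1 in the cells were VEGFA (1.70 in the nuclei), PGK1 (1.56), BNIP3 (1.31) and PDK1 (1.26), 4 of the 8 such genes of the glycolysis and hypoxia list, as well as DNAH11 (1.51), a ciliary dynein, PROM1 (1.29), an apical membrane protein, and MITF (1.21), a pigment cell factor. Over 1 in the cells and under 1 in the nuclei were ROR1 (1.32 in the cells), a WNT receptor, BMPR1B (1.28), a BMP receptor, EBF2 (1.30), a Cajal-Retzius factor, VIM (1.19), an intermediate filament, and the S phase genes MCM3 (1.21), HELLS (1.15) and ATAD2 (1.15). All 14 ratios were under 2 in the library given.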

How the results depend on the processing

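Of the alternatives, 95 nuclei values and 54 cells values lay close to the reported ones (counts within 1.5 times, shares within their counting interval), and 23 and 72 moved, not counting 16 and 8 values from settings that left the members as they were. The cells values thus depended more on the processing, where all 188 candidates were members and no score limit applied. The causes were not tested. Leaving out RSPO2, the well with most members (with or without other candidates in its place), or scores at or under the shallow barcodes was chosen after seeing the data. No paired analysis was possible because each library is 1 sample and no replicate number joins them, and no test was made.

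For the counts of 2-fold higher and lower genes (565 and 983 in the nuclei, 261 and 86 in the cells), a minimum of 1 CPM gave 1361 and 2174, and 733 and 712, and a minimum of 20 CPM gave 265 and 499, and 109 and 6. Against radial glia-like barcodes, 1925 genes were higher in the nuclei, and 1818 were higher and 498 lower in the cells. Lower genes of the nuclei numbered 2226 for the 100 highest scores, 414 with a limit of 500, which took in all 281 candidates, 1526 with 2 markers, 580 without RSPO2 and 414 when the well with most members was left out and lower-scoring candidates took places (240 barcodes, 210 of them members). Without that well and with none added, the lower genes numbered 978, and 6 cortical factors were lower. Higher and lower genes of the cells numbered 764 and 978 for the 100 highest scores, 416 and 177 with 2 markers, 507 and 392 with 4 markers, 490 and 312 without RSPO2, 631 and 502 when thinned before scoring, 485 and 1038 with no TTR count, 829 and 684 with no TTR limit, 523 and 229 as means over barcodes, and 512 and 307 without scores at or under the shallow barcodes. Without the deepest 5% of barcodes 185 were lower.

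In the cells the higher midline factors (5 of 13) became 10 for the 100 highest scores, 8 with 2 markers, with 4 markers, without RSPO2, with no TTR count and without low scores, 10 when thinned before scoring and as means over barcodes, and 11 with no TTR limit. The higher BMP ligands (3 of 7) became 6 with no TTR limit, and 5 against radial glia-like cells, for the 100 highest scores, with 4 markers, without RSPO2, when thinned before scoring, as means over barcodes and without low scores. The higher WNT targets (1 of 10) became 0 without the well with most members, 2 against radial glia-like cells, with 4 markers and without RSPO2, 3 with 2 markers, 4 for the 100 highest scores, as means over barcodes and without low scores, and 5 when thinned before scoring and with no TTR limit. The lower cortical factors (0 of 10) became 6 against radial glia-like cells, 4 with no TTR limit, 2 for the 100 highest scores, with 4 markers, when thinned before scoring and with no TTR count, and 1 without RSPO2, as means over barcodes and without low scores. The cortical factors PAX6, EMX1, EMX2, LHX2 and GLI3 were among the genes that chose the radial glia-like cells. The count of 6 was thus partly fixed by that choice, and nothing follows from it. In the nuclei the higher WNT targets (2) became 4 for the 100 highest scores, and the lower cortical factors (6) became 3 with 4 markers, without RSPO2 and with the well replaced by lower scores.

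The G2/M share of nuclei members (8.40%) became 5.00% for the 100 highest scores, 20.4% with 1 gene required, 5.20% with 3, and 18.0% without thinning, and that of cells members (50.5%) became 42.0%, 73.9%, 33.5% and 69.7% in the same order, 41.0% when thinned before scoring and 39.6% with no TTR limit. The Cajal-Retzius share of nuclei members (6%) became 0% for the 100 highest scores, 0.800% with 2 markers, 17.2% with 1 gene required, 10.0% without thinning and 1.95% when thinned before scoring. In cells members (9.04%) it became 34.0% with 1 gene required, 4.26% with 3, 23.9% without thinning and 5.20% with no TTR limit.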

Other observations

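Scrublet, a doublet caller, marked 0 barcodes in either library. The highest Scrublet scores, up to an expected rate of 3% in the nuclei and 5% in the cells, were 341 and 339 barcodes. They held 11 of the 250 nuclei members and 17 of the 188 cells members, in both libraries a larger share of members than of all barcodes. Those barcodes were deeper than the others (medians of 9694 against 4578 and 20402 against 10463.5 transcripts). The 2 libraries share 19 barcode names among the barcodes over the depth limits; they were made separately, and a name only records a combination of wells.

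Of the eye genes with at least 20 counts, 2 of 6 were higher and 1 lower in the nuclei, and 2 of 7 were higher and 1 lower in the cells. RPE65 and RAX, genes of the eye field and its pigment epithelium, were at 14.7 against 5.64 CPM and 3.67 against 0.211 CPM in nuclei members, and at 23.3 against 10.4 CPM and 2.47 against 0.484 CPM in cells members, RAX from 6 and 9 counts. PAX8, of the floor plate and midbrain list described above, was at 4.89 against 0.664 CPM and 2.74 against 1.05 CPM, from 8 and 10 counts.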
